A study of Rattus norvegicus with 8 samples.

Results

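The fatty acid oxidation and ketogenesis genes described here are a list of 31 enzymes, transporters and regulators that carry fatty acids into mitochondria and peroxisomes and break them down. A gene was followed where a probe set of the array had that gene as its single symbol in the platform annotation, which held for 30 of the 31, among 14217 genes named in this way. When a gene had several probe sets, that with the highest mean over the arrays stood for it. The list names genes by function, and it was chosen with earlier results of these data known. Acaa1a, a peroxisomal thiolase, shares its probe set with its near-identical copy Acaa1b and was left out of every count.

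The animals were male Wistar rats made cirrhotic by inhaled carbon tetrachloride (CCl4), a liver toxin, and given drinking water with phenobarbital at 0.3 g/L, an inducer of hepatic drug metabolism. Both groups share this induction. According to the sample titles, 4 livers came from rats given vehicle and 4 from rats given an antiangiogenic treatment, which the labels do not name further, with no dose, duration or age, and the series text calls the control rats non-treated. For each liver 1 array (Affymetrix Rat2302) was run with its total RNA, and the deposited values are log2 intensities from robust multi-array average (RMA). The series asks how blocking vessel growth alters the cirrhotic liver, and the comparison here asks how the genes of fatty acid breakdown stand in it. No liver without cirrhosis was analysed here, so these data do not place the levels against a healthy liver.

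Long-chain fatty acids are coupled to coenzyme A, passed across the mitochondrial membranes as carnitine esters, and shortened in repeated rounds of dehydrogenation, hydration, dehydrogenation and thiolysis. Electrons from the initial dehydrogenation go to the respiratory chain through the electron transfer flavoprotein. Peroxisomes shorten very long and branched chains and the side chain of bile acid precursors. In the fasting liver the acetyl-CoA formed is turned into ketone bodies for other organs, and the nuclear receptor PPAR-alpha switches on many of these genes. The hepatocyte is the main site of all these steps in liver.

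Vehicle 4 and treated 3 were nearly the same array. Their values correlated at r = 0.996 over 31042 probe sets, which are not independent, against 0.956 to 0.988 in the 27 other pairs. The spread of their difference (scaled median absolute deviation 0.166) was also below that of the other pairs (0.251 to 0.404). Both were kept under their labels, and values without them are given for the members as a set, for each list, and for the members whose values they shift most. The labels name no batch. From the spiked-in bacterial transcripts 3 groups of arrays were formed here, by thresholds set for this purpose, and are called hybridization groups. Vehicle 1 and treated 1 had BioC over 1 log2 unit above BioB, vehicle 4 and treated 3 had BioB above 8.5, and vehicle 2 and 3 with treated 2 and 4 met neither threshold. The median log2 intensity of an array was 5.16 to 5.30. As a sign of RNA quality, the Gapdh control at the 3′ end exceeded that at the 5′ end by 0.186 to 0.414 in vehicle and by 0.133 to 0.404 in treated livers (log2). The beta-actin control had a larger excess at the 3′ end, 1.70 to 1.91 in vehicle and 1.77 to 1.88 in treated livers. With 4 arrays in a group, their number sets the precision of what follows.

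Promoter sequences were available for 28 of the 31 listed genes, in RefSeq's rat assembly GRCr8, as windows from 250 bases before to 50 bases after each gene's start. Acaa2, Acadl and Decr1 had no entry in that table. The sequences printed are the 250 bases before the start, on the gene's strand. They belong to the fatty acid binding protein gene Fabp1 and to 4 other members whose values are described below. Of the 28 windows, that of Fabp1 alone held the relaxed PPAR-type repeat searched for here, and sequence outside the windows was not searched. Capitals mark the repeat of Fabp1, the AGGTCA motifs of Acadvl, the GC boxes of Cpt2, the CCAAT boxes of Acox2, and both kinds of box of Ehhadh.
Fabp1 (chr4:104749090-104749339, plus strand): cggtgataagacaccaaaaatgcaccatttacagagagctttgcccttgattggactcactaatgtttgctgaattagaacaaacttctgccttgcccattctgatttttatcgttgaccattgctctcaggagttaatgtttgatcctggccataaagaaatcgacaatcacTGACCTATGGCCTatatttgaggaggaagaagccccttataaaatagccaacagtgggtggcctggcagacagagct
Acadvl (chr10:55236706-55236955, minus strand): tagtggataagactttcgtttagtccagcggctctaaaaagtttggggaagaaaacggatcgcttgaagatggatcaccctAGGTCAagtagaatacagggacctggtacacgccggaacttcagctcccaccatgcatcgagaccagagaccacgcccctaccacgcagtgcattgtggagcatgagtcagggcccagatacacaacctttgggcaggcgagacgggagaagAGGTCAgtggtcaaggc
Cpt2 (chr5:127910819-127911068, minus strand): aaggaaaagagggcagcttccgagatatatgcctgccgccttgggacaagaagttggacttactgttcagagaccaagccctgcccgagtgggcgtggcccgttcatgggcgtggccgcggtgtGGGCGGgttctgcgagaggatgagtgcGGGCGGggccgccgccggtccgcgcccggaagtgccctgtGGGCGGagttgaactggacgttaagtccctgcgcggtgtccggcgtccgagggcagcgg
Ehhadh (chr11:92746159-92746408, plus strand): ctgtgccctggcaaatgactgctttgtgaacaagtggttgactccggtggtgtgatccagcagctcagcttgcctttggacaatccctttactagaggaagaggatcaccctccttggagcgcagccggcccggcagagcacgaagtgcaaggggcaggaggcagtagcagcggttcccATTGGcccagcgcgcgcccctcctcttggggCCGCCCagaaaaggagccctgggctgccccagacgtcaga
Acox2 (chr15:19090705-19090954, plus strand): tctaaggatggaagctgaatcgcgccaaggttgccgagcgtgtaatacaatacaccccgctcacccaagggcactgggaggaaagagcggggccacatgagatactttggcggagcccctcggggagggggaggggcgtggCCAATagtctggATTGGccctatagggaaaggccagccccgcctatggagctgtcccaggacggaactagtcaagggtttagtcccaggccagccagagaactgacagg

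The motifs were searched on both strands of the 300-base windows, and a match is a description of letters, not a binding site. The GC box GGGCGG, bound by Sp1-type factors and common in promoters of widely expressed genes, was present in 22 of 28 member promoters (78.6%), against 33.1% of all 33469 promoters. CCAAT was found in 12 of 28 (42.9%, against 37.5% of all). AGGTCA, the core that many nuclear receptors recognise, was found in 7 of 28 (25%, against 16.2% of all), in Acadvl, Echs1, Eci1, Eci2, Fabp1, Hadhb and Hsd17b4. A relaxed form of the repeat that PPAR-alpha and its partner bind, AGGNCA repeated in the same direction with 1 base between the copies, occurred in Fabp1 alone (1 of 28, against 0.415% of all). It lay on the minus strand, from −77 to −65 relative to the start, and contains the AGGTCA counted above. The strict form, with AGGTCA in both copies, was in no member promoter (0 of 28, against 0.0538% of all).

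No member passed the test, and nearly all members had a higher mean in treated livers by a small amount. The difference, treated minus vehicle on the log2 scale, was above 0 for 28 of 30 members, while 51.6% of all 14217 genes were above 0. The median member difference was 0.23, against 0.01 over all genes, and members ranged from −0.15 (Pdk4) to 0.63 (Ehhadh). With limma and Benjamini-Hochberg adjustment over 31042 probe sets, 0 of 30 members and 0 probe sets in all (0%) had an adjusted p under 0.05, and 1220 probe sets had an unadjusted p under 0.05. The smallest adjusted p of any member was 0.979, which was also the smallest of the whole table. At an unadjusted p under 0.05 there were 0 of 30 members, against 1.95% of all genes higher and 2.8% lower. The vehicle and treated values overlapped for all 30 members, and 0.992% of all genes had every treated value above every vehicle value.

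**Figure D1:**
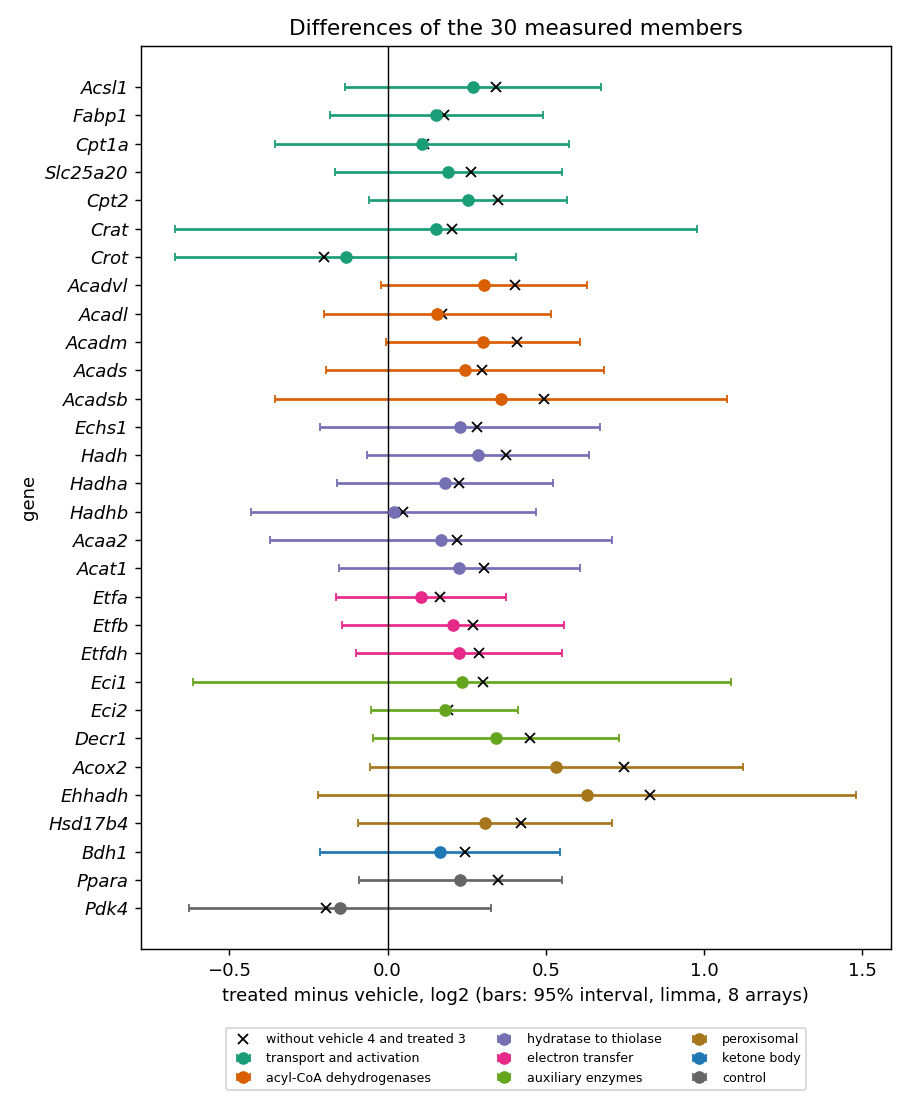
Difference of each of the 30 measured members, treated minus vehicle in log2 units (points, coloured by role) with its 95% interval from limma over 8 arrays, and the difference without vehicle 4 and treated 3 (crosses). Of the points, 28 lie right of 0, and all 30 intervals include 0.

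The 2 near-identical arrays bear on this directly, since 1 stands in each group. Being near-copies, they draw the group differences toward 0, so leaving out both enlarges most differences by arithmetic. Most signs stay as they were for the same reason, and the values without them are not a second test of direction. Without them, 28 of 30 members were higher in treated livers (52% of all genes), and the median difference was 0.29. In that fit 6 members, Cpt2, Acadvl, Acadm, Decr1, Acox2 and Hsd17b4, had an unadjusted limma p under 0.05 (3.32% of all genes were so with a higher treated mean), and 0 passed after adjustment (smallest adjusted p of a member 0.729). Their 3 treated values lay above all 3 vehicle values for 5 members, Cpt2, Acadvl, Acadm, Decr1 and Acox2, against 5.79% of all genes. Of all probe sets 3 passed there (0.00966%), none of them a member's.

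The members were low together on vehicle 2 and vehicle 3. The lowest of the 8 values fell on one or the other of these arrays for 24 of 30 members, while 27.1% of all genes had their lowest value there. The mean of the 30 members was 10.43, 10.26, 10.26 and 10.58 for vehicle 1 to 4, against 10.66, 10.49, 10.59 and 10.65 for treated 1 to 4. Vehicle 4 thus lay among the treated arrays, next to its near-copy treated 3. The group averages of this mean were 10.38 ± 0.15 and 10.60 ± 0.08 (SD, n = 4 arrays each). The highest value fell on a treated array for 24 of 30 members, against 53.7% of all genes, most often on treated 1 (11 members) and treated 4 (7 members).

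**Figure D2:**
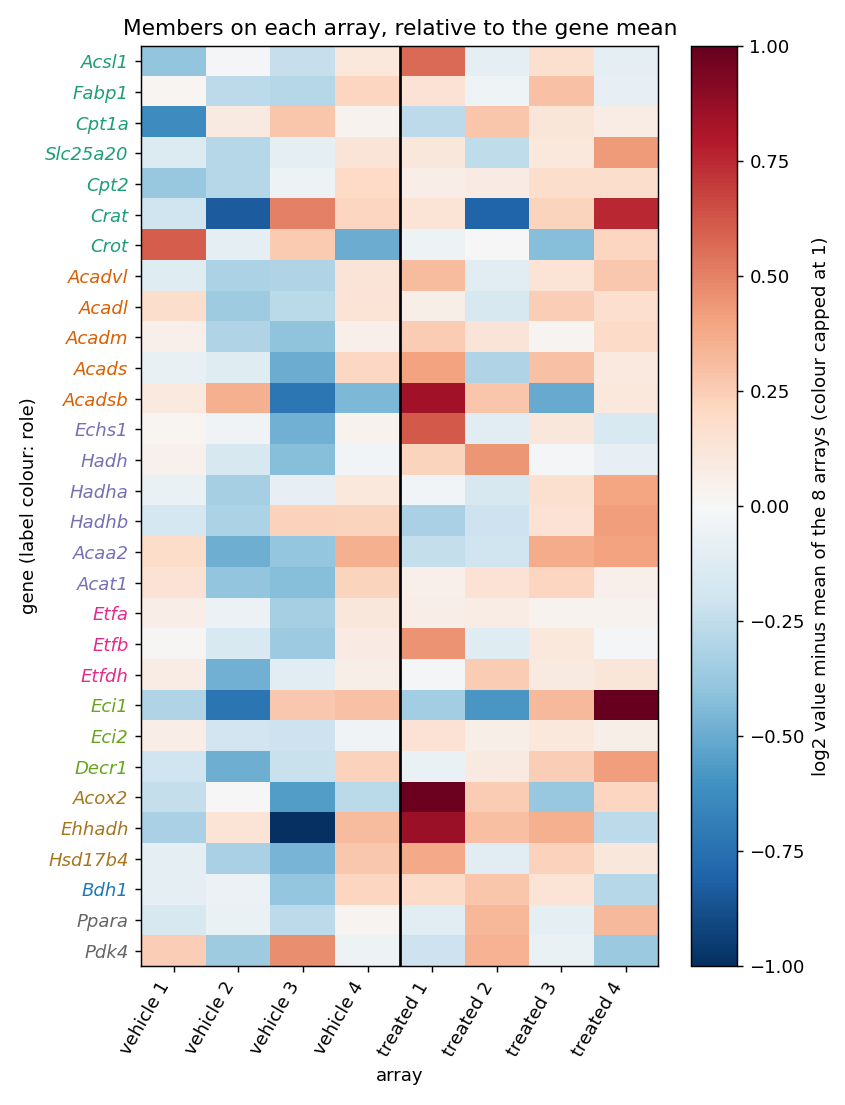
Log2 value of each member on each array minus the mean of that gene over the 8 arrays, with gene labels coloured by role and the colour scale capped at 1 log2 unit. Vehicle 2 and 3 are mostly blue (lower than the gene's mean), and vehicle 4 and treated 3 have nearly the same pattern.

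Entry of fatty acids begins with Acsl1 (1370939_at), the main long-chain acyl-CoA synthetase of liver. It stood at 12.28, 12.66, 12.44 and 12.78 (vehicle 1 to 4) and at 13.24, 12.57, 12.83 and 12.58 (treated 1 to 4). Treated 1 was the highest of all arrays, and the groups overlapped (difference 0.27, 95% interval −0.14 to 0.67, and 0.13 without treated 1). The second bright probe set of Acsl1 (1388153_at) had a larger difference, 0.55 (0.0037 to 1.10), with a limma adjusted p = 0.979. It and a dim second probe set of Hadh (1389922_at, difference 0.37) were the member probe sets with an unadjusted p under 0.05, and neither stood for its gene in the counts. Fabp1 (1369111_at), which carries fatty acids within the hepatocyte, stood at 13.31, 13.02, 13.00 and 13.50 in vehicle and at 13.43, 13.24, 13.58 and 13.20 in treated livers. Here vehicle 4 and treated 3 were the highest of their groups, and the difference was 0.15 (−0.18 to 0.49), or 0.081 without treated 3.

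Cpt1a (1386946_at) makes the carnitine ester at the outer mitochondrial membrane, the rate-controlling step that malonyl-CoA inhibits. Its values were 10.45, 11.18, 11.36 and 11.12 in vehicle and 10.82, 11.36, 11.20 and 11.16 in treated livers. Apart from the low vehicle 1 and treated 1, which share a hybridization group, the arrays covered the same range in both groups, and the difference of 0.11 (−0.36 to 0.57) became −0.08 without vehicle 1. The carnitine-acylcarnitine carrier Slc25a20 (1398249_at) of the inner membrane stood at 9.30, 9.16, 9.34 and 9.56 in vehicle and at 9.55, 9.18, 9.54 and 9.86 in treated livers, with a difference of 0.19 (−0.17 to 0.55), or 0.0836 without treated 4. Treated 2 lay within the low vehicle values.

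Cpt2 (1386927_at) releases the acyl-CoA on the matrix side. It measured 9.79, 9.88, 10.11 and 10.36 (vehicle 1 to 4) and 10.23, 10.25, 10.34 and 10.34 (treated 1 to 4). All treated values lay close together and above vehicle 1 to 3, and vehicle 4 lay above them all. The difference was 0.26 (−0.06 to 0.57), and 0.35 (0.03 to 0.66) without the near-identical arrays. With 1 array left out it was 0.17 at its lowest. Crat, the mitochondrial and peroxisomal carnitine acetyltransferase, differed by 0.15 (−0.67 to 0.98), and this became −0.10 without vehicle 2 and −0.07 without treated 4. Crot, its peroxisomal counterpart for medium chains, was lower in treated livers by 0.13 in the mean, with an interval of −0.67 to 0.41 for the difference, and was higher by 0.05 without vehicle 1.

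The acyl-CoA dehydrogenases, which open each round of shortening, were higher in treated livers in 5 of 5 members, with a median difference of 0.30. Acadm (1367702_at), the medium-chain enzyme, had the smallest unadjusted p of all members. It stood at 12.03, 11.67, 11.57 and 12.02 (vehicle 1 to 4) and at 12.23, 12.11, 12.004 and 12.17 (treated 1 to 4). Treated 3 alone fell into the vehicle range, level with its near-copy vehicle 4. The difference was 0.30 (−0.0036 to 0.61, limma adjusted p = 0.979), a level 1.23-fold higher, and 0.41 (0.05 to 0.77, limma adjusted p = 0.747) without both arrays. With 1 array left out it was 0.22 at its lowest.

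Acadvl (1367897_at), the very long-chain enzyme of the inner membrane, measured 10.18, 9.98, 10.002 and 10.43 in vehicle and 10.62, 10.19, 10.44 and 10.57 in treated livers. Vehicle 4 lay above treated 2, and the other 3 vehicle values lay below all treated ones (difference 0.31, interval −0.02 to 0.63). The difference became 0.40 (0.03 to 0.78) without the near-identical arrays, and was 0.25 at its lowest with 1 array left out. The long-chain enzyme Acadl differed by 0.16 (−0.20 to 0.51, and 0.0652 without vehicle 2) and the short-chain enzyme Acads by 0.25 (−0.19 to 0.68, and 0.12 without vehicle 3). Acadsb, which acts on short branched chains from isoleucine breakdown, had the largest difference of the 5, 0.36, with a wide interval of −0.36 to 1.07, and 0.14 without treated 1. This difference was 0.50 (−0.27 to 1.26) without the near-identical arrays.

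**Figure D3:**
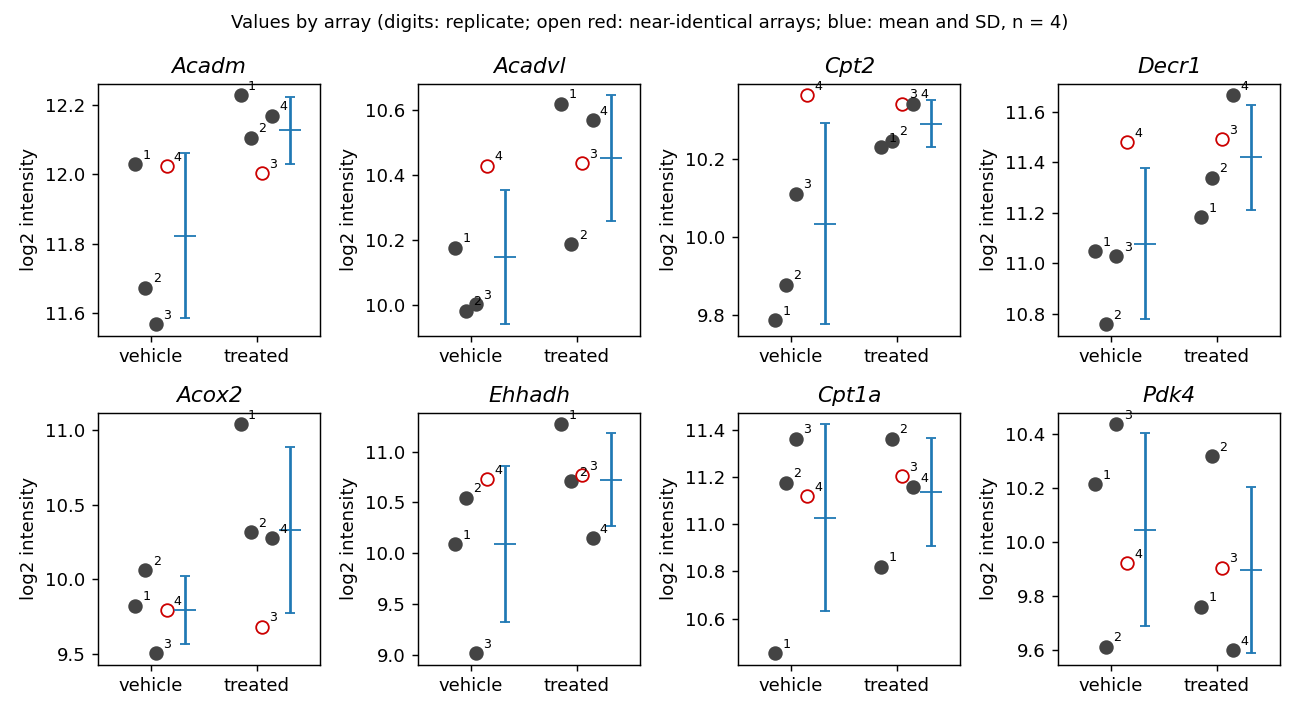
Log2 intensity of 8 members on every array, with the replicate number beside each point, open red points for vehicle 4 and treated 3, and the mean and SD (n = 4) in blue. Acadm, Acadvl, Cpt2, Decr1 and Acox2 separate by group once the open points are set aside, while Ehhadh, Cpt1a and Pdk4 do not.

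The hydratase, hydroxyacyl-CoA dehydrogenase and thiolase genes were higher in 6 of 6 members, with a median of 0.20. Hadh (1370237_at), the short-chain hydroxyacyl-CoA dehydrogenase, stood at 11.20, 11.00, 10.73 and 11.13 in vehicle and at 11.38, 11.60, 11.15 and 11.08 in treated livers, where treated 1 and 2 were above every vehicle array (difference 0.29, interval −0.07 to 0.64, and 0.19 without treated 2). The alpha and beta chains of the mitochondrial trifunctional protein, which handles long chains, were Hadha at 0.18 (−0.16 to 0.52, and 0.081 without treated 4) and Hadhb at 0.02 (−0.43 to 0.47). The Hadhb difference was below 0 in 5 of the alternatives, at −0.12 without treated 4 and −0.06 after quantile normalization. Echs1, the enoyl-CoA hydratase, differed by 0.23, and by 0.06 without treated 1. The thiolases Acaa2 and Acat1 differed by 0.17 (0.03 without vehicle 2) and 0.23 (0.12 without vehicle 3), and a second probe set of each was higher by 0.36 and 0.30.

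Electron transfer genes were higher in 3 of 3, with a median of 0.21. Etfdh (1371519_at), the dehydrogenase that passes the electrons to ubiquinone, measured 10.44, 9.88, 10.25 and 10.42 in vehicle and 10.34, 10.61, 10.45 and 10.48 in treated livers. Vehicle 2 was the low value, and the difference was 0.23 (−0.10 to 0.55), or 0.10 without it. The flavoprotein chains Etfa and Etfb differed by 0.10 (−0.16 to 0.37) and 0.21 (−0.14 to 0.56), which became 0.01 without vehicle 3 and 0.09 without treated 1. Etfa had an SD of 0.02 in treated and 0.20 in vehicle livers. Its 4 treated values (11.20 to 11.24) lay within the vehicle range (10.84 to 11.28).

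Auxiliary enzymes for unsaturated chains were higher in 3 of 3. Decr1 (1367777_at), the mitochondrial dienoyl-CoA reductase, stood at 11.05, 10.76, 11.03 and 11.48 (vehicle 1 to 4) and at 11.18, 11.34, 11.49 and 11.67 (treated 1 to 4). Vehicle 4 again lay among the treated values, and the difference was 0.34 (−0.05 to 0.73), or 0.45 (0.05 to 0.85) without the near-identical arrays. With 1 array left out it was 0.24 at its lowest. Eci2 (1388908_at), an enoyl-CoA isomerase, measured 10.57, 10.31, 10.29 and 10.46 in vehicle and 10.64, 10.56, 10.61 and 10.56 in treated livers. Vehicle 1 reached the lowest treated values, and the difference was 0.18 (−0.05 to 0.41). Eci1, a related isomerase read by a probe set that may match more than 1 transcript, differed by 0.24 (−0.62 to 1.09) and by −0.09 without treated 4.

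Peroxisomal members had the 2 largest differences of the list. Ehhadh (1368283_at), the bifunctional enzyme of the peroxisomal round and a classical PPAR-alpha target, stood at 10.09, 10.54, 9.01 and 10.73 (vehicle 1 to 4) and at 11.27, 10.71, 10.77 and 10.15 (treated 1 to 4). The low vehicle 3 and the high treated 1 were the extremes, and the other 6 arrays of both groups were intermixed. Its difference was 0.63 (−0.22 to 1.48), 0.27 without vehicle 3 and 0.83 without the near-identical arrays. Acox2 (1371137_at), the oxidase of branched chains and bile acid precursors, measured 9.82, 10.06, 9.50 and 9.79 in vehicle and 11.04, 10.31, 9.68 and 10.27 in treated livers.

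For Acox2 treated 1 stood well above every vehicle array, and treated 3 lay within the vehicle range beside its near-copy. The difference was 0.53 (−0.06 to 1.12, limma adjusted p = 0.979), a level 1.45-fold higher, with values of 0.30 without treated 1 and 0.75 (0.15 to 1.35) without the near-identical arrays. Hsd17b4 (1367672_at), the second bifunctional enzyme, which serves branched chains, stood at 11.35, 11.11, 10.97 and 11.71 in vehicle and at 11.81, 11.33, 11.67 and 11.55 in treated livers (difference 0.31, interval −0.09 to 0.71, and 0.20 without vehicle 3). Vehicle 4 was here above 3 of the 4 treated arrays, and the difference was 0.42 (0.01 to 0.83) without the near-identical arrays. The probe set shared by Acaa1a and Acaa1b (1387783_a_at), outside the counts, measured 10.48, 10.79, 10.61 and 11.51 in vehicle and 11.50, 10.77, 11.55 and 11.26 in treated livers. Its groups overlapped, and they differed by 0.42 (−0.15 to 0.99).

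Of ketone body formation, the members hold Acat1, the thiolase given above that makes acetoacetyl-CoA, and Bdh1 at its end, and the enzymes between them were not analysed here. Bdh1 (1368387_at), which reduces acetoacetate to beta-hydroxybutyrate, stood at 10.06, 10.09, 9.77 and 10.36 in vehicle and at 10.35, 10.43, 10.29 and 9.86 in treated livers. The groups overlapped through vehicle 4 and treated 4, and the difference was 0.16 (−0.21 to 0.54), or 0.06 without vehicle 3. Its second probe set differed by 0.23.

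Of the regulators, Ppara (1387278_at), the receptor itself, was dim, at 4.98, 5.07, 4.88 and 5.17 in vehicle and 5.04, 5.47, 5.05 and 5.46 in treated livers. Treated 2 and 4 were above every vehicle array, and treated 1 and 3 were within the vehicle range (difference 0.23, interval −0.09 to 0.55). The Ppara difference was 0.35 (−0.03 to 0.73) without the near-identical arrays, and 0.16 at its lowest with 1 array left out. Pdk4 (1378074_at), the pyruvate dehydrogenase kinase that spares glucose when fat is burned, measured 10.21, 9.61, 10.44 and 9.92 in vehicle and 9.76, 10.32, 9.90 and 9.60 in treated livers. Its difference was −0.15 (−0.63 to 0.33), while its second probe set differed by 0.17, so that the mean of both was 0.01.

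The 30 members had 43 probe sets in all, and 39 of these were higher in treated livers. Of 10 members with several probe sets, 7 had the same sign on all of them. Crot, Hadha and Pdk4 did not. For Crot and Hadha the probe set of opposite sign was a dim one, with group means of 3.498 and 3.649 for Crot and 4.06 and 3.98 for Hadha.

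By hybridization group, most members had higher treated values in 2 of the 3, and the members were about level in the third. In the second, which held 4 arrays, 28 of 30 members were higher with a median difference of 0.31, against 48.9% of all genes. In the first, a single pair of arrays, 21 of 30 were higher with a median of 0.19, against 54.2% of all genes. Of the 17 members from the acyl-CoA dehydrogenases to the auxiliary enzymes, 10 were higher in this pair (median 0.07). All 17 were higher in the second group. The 10 were 4 of 5 acyl-CoA dehydrogenases, 3 of 6 hydratase to thiolase genes, 1 of 3 electron transfer genes and 2 of 3 auxiliary enzymes. In the first group the peroxisomal Acox2 and Ehhadh (1.22 and 1.19) and Acsl1 (0.96) led, while Crot (−0.65), Pdk4 (−0.45) and Acaa2 (−0.42) were lower. In the third, the near-identical pair, 18 of 30 were higher with a median of 0.01, against 50% of all genes. As a block in the model, the hybridization group left 0 members and 0 probe sets past the threshold.

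**Figure D4:**
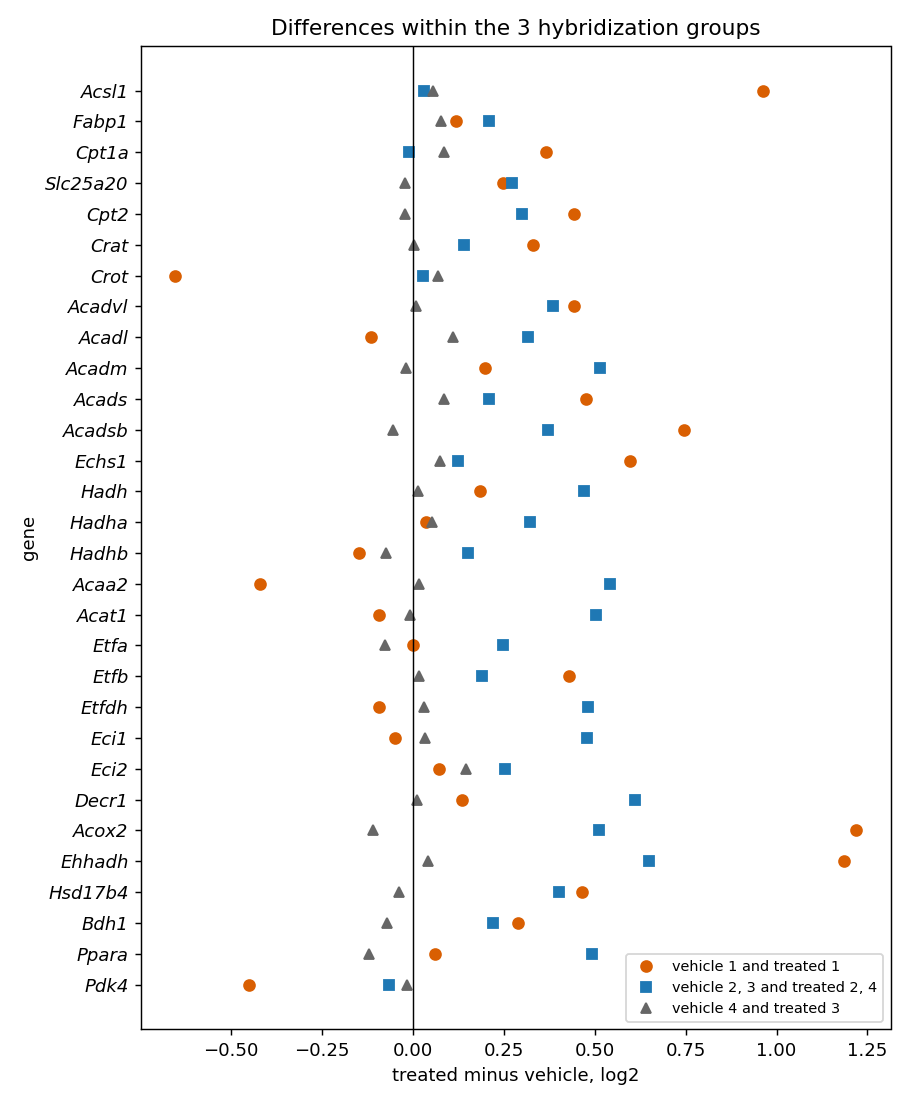
Treated minus vehicle difference of each member in log2 units within the 3 hybridization groups (circles, vehicle 1 and treated 1; squares, vehicle 2 and 3 with treated 2 and 4; triangles, vehicle 4 and treated 3). The squares lie right of 0 for 28 of 30 members, and the triangles lie close to 0 throughout.

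Other genes of the same pathways were taken from a list of 103 genes, of which 94 had a probe set of their own. Higher in treated livers were 70 of the 94, with a median difference of 0.20, and 67 without the near-identical arrays (0.27). None passed the adjusted threshold (0 of 94, limma), and 11 had an unadjusted p under 0.05, all with a higher treated mean (background 1.95%). These 11 are named below. Of them Sirt3, Hacl1 and Retsat met the naming rule, and the other 8 were chosen after their values were seen.

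Other peroxisomal genes were the most uniform of these, with 19 of 21 higher and a median of 0.27 (18 of 21 and 0.36 without the near-identical arrays). Scp2 (1370296_at), a lipid carrier with a thiolase form, stood at 12.96, 13.03, 12.80 and 13.00 in vehicle and at 13.40, 13.37, 13.07 and 13.13 in treated livers, without overlap (difference 0.29, interval 0.03 to 0.56). Hacl1 (1371012_at), a lyase of alpha-oxidation of branched chains, had the largest difference, 0.96 (0.01 to 1.91), with means of 9.18 ± 0.71 in vehicle and 10.14 ± 0.72 in treated livers (SD, n = 4 each). The enoyl-CoA reductase Pecr, the import receptor partner Pex14 and the very long-chain acyl-CoA synthetase Slc27a2 differed by 0.47, 0.39 and 0.42. Amacr, the racemase of branched chains, and the reductase Decr2 differed by 0.65 and 0.55 (0.35 for Decr2 without treated 1), while Acot3 (−0.25), Abcd2 (−0.01) and Slc25a17 (0.01) were at the low end.

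Other mitochondrial and acyl-CoA genes were higher in 28 of 37, with a median of 0.18 (28 of 37 and 0.235 without the near-identical arrays). Hsd17b10 (1367662_at), a matrix dehydrogenase of branched-chain breakdown, stood at 11.27, 11.30, 10.65 and 11.28 in vehicle and at 11.68, 11.65, 11.39 and 11.38 in treated livers, without overlap (difference 0.40, interval 0.02 to 0.78, and 0.24 without vehicle 3). Mcee, the methylmalonyl-CoA epimerase of odd-chain breakdown, differed by 0.46. The highest differences were those of the medium-chain synthetases Acsm2 (1.03, and 0.45 without treated 1) and Acsm3 (0.79, and 0.50 without treated 2) and of the thioesterase Acot1 (0.75, and −0.34 without treated 4). The lowest were Acot9 (−0.59, and −0.32 without treated 1), Acot2 (−0.41, and −0.12 without vehicle 3) and Acbd3 (−0.24, and −0.0774 without vehicle 3). Of the genes that set or bypass the Cpt1a step, Cpt1b, the muscle isoform, differed by −0.07, Acacb, which makes the inhibitor malonyl-CoA at mitochondria, by 0.15, and Mlycd, which removes it, by 0.25 (−0.10 to 0.60, and 0.0991 without treated 1).

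Genes tied to PPAR-alpha outside these pathways went both ways, with 18 of 28 higher and a median of 0.07 (16 of 28 and 0.11 without the near-identical arrays). Retsat (1370806_at), a retinol saturase, stood at 10.44, 10.24, 9.39 and 11.21 in vehicle and at 11.70, 11.16, 11.21 and 11.13 in treated livers, where vehicle 4 alone reached the treated range (difference 0.98, interval 0.22 to 1.74). The receptor's partner Rxra (1369101_at) differed by 0.53 (0.08 to 0.98) and the lipid droplet protein Plin5 (1381722_at), which was dim, by 0.49 (0.05 to 0.94, and 0.32 without treated 4), without overlap. Cyp4a8, a fatty acid hydroxylase, had the largest difference, 1.61 (−0.20 to 3.43, and 0.86 without treated 1), and Vnn1, a pantetheinase, differed by 0.91 (−0.08 to 1.90). On the low side were the uncoupling protein Ucp2 (−0.77), the fasting hormone Fgf21 (−0.70, interval −2.34 to 0.94) and the fatty acid binding protein Fabp5 (−0.57). With 1 array left out, Fgf21 ranged from −1.33 (without vehicle 1) to −0.19 (without treated 1), Fabp5 reached −0.32 without treated 2, and Ucp2 reached −0.49 without treated 1. Ppargc1a, the coactivator of mitochondrial genes, differed by −0.49 (−1.85 to 0.86), and by 0.02 without vehicle 1.

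Ketone and acetate genes outside the members were higher in 5 of 8, with a median of 0.13 (5 of 8 and 0.18 without the near-identical arrays). Sirt3 (1372925_at), a mitochondrial deacetylase that acts on enzymes of this pathway, stood at 7.59, 7.89, 7.70 and 7.88 in vehicle and at 8.30, 8.15, 7.98 and 8.14 in treated livers, without overlap (difference 0.37, interval 0.11 to 0.64, limma adjusted p = 0.979). The cytosolic dehydrogenase Bdh2 and the acetate enzyme Acss2 differed by 0.53 and 0.33, or by 0.32 without vehicle 1 and −0.0241 without treated 1. Slc16a6, which exports ketone bodies from hepatocytes, differed by −0.85 (−1.915 to 0.21), Oxct1, the ketone-using enzyme that hepatocytes largely lack, by −0.57, and Acss1 by −0.50. Without vehicle 1 Slc16a6 differed by −0.49 and Acss1 by −0.28, and without treated 1 Oxct1 differed by −0.33.

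**Figure D5:**
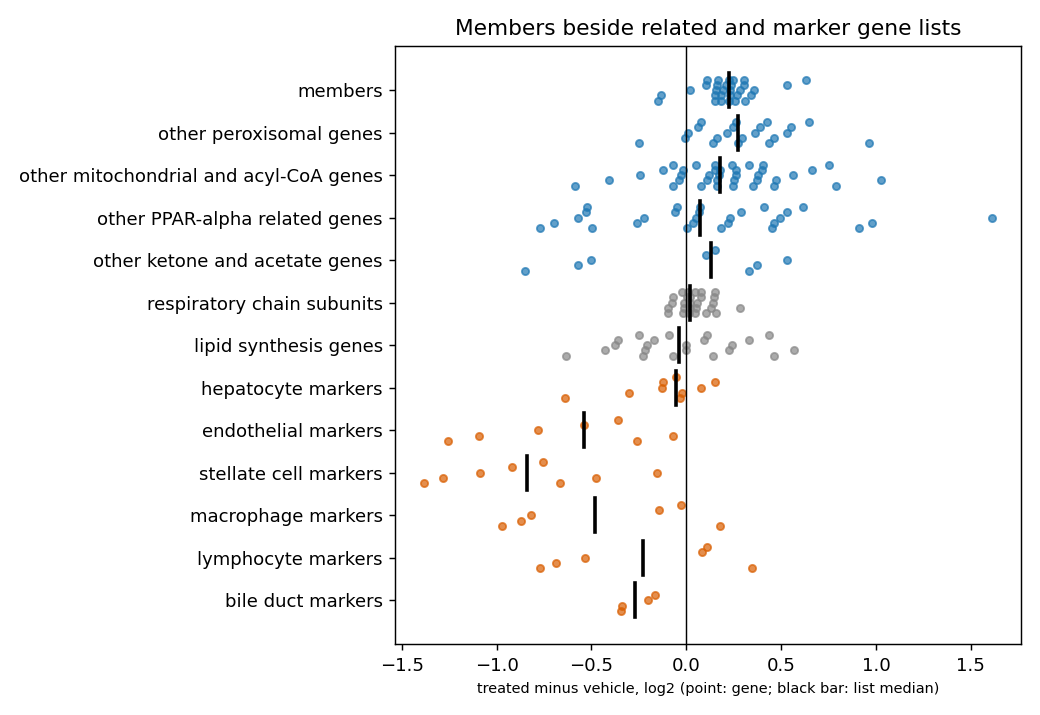
Treated minus vehicle difference in log2 units for the members, the related lists, the compared lists and the cell type markers, with 1 point per gene and a black bar at the list median. The members (median 0.23) and other peroxisomal genes (0.27) lie right of 0, respiratory chain subunits (0.02) at 0, and endothelial, stellate cell and macrophage markers left of it.

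Respiratory chain subunits, the mitochondrial genes downstream of fatty acid oxidation, were higher in 19 of 27 with a median of 0.02, and their differences ran from −0.10 to 0.28. Lipid synthesis genes were higher in 10 of 22 with a median of −0.04 and a wider range, from −0.63 to 0.57. Without the near-identical arrays the respiratory chain had 18 of 27 higher (median 0.04) and lipid synthesis 10 of 22 (−0.05). The differences between these lists and the members were not tested.

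Levels of cell type markers are given beside those of the members. Hepatocyte markers were higher in 2 of 9, with a median of −0.05 and list means of 13.34 to 13.51 in vehicle and 13.02 to 13.46 in treated livers. Without the near-identical arrays the median was −0.06, with 2 of 9 higher. The plasma lipoprotein gene Apoa1 (−0.64) and the amino acid enzyme gene Tat (−0.30) had the lowest differences and the transcription factor gene Hnf4a (0.15) the highest. Alb, the albumin gene, had means of 14.84 in vehicle and 14.82 in treated livers. Endothelial markers were lower in 7 of 7 (median −0.54). Their list means were 8.26, 8.24, 8.33 and 7.40 in vehicle 1 to 4 and 7.31 to 7.55 in treated livers, so that the groups overlapped through vehicle 4 alone. Without the near-identical arrays the endothelial median was −0.72, and 4 of 7 had all treated below all vehicle values, as had 784 of all 14217 genes. Stellate cell and myofibroblast markers were lower in 8 of 8 (median −0.84, 8.08 to 9.40 and 7.26 to 8.95). Macrophage markers were lower in 5 of 6 (median −0.48, 8.39 to 9.14 and 7.48 to 8.80), lymphocyte markers in 3 of 6 (median −0.23, 4.56 to 5.19 and 4.43 to 4.95) and bile duct markers in 4 of 4 (median −0.27, 6.68 to 7.64 and 6.29 to 7.95). The lower lymphocyte markers were Cd3e (−0.69), Cd3g (−0.54) and Cd4 (−0.77). The higher were Cd8a (0.35) and the dim Cd79b (0.08) and Ms4a1 (0.11). Without the near-identical arrays these medians were −1.11 for stellate cell markers (8 of 8 lower), −0.64 for macrophage markers (5 of 6), −0.39 for lymphocyte markers (4 of 6) and −0.35 for bile duct markers (4 of 4). All treated values then lay below all vehicle values for 1 of 8, 3 of 6, 3 of 6 and 0 of 4 of these, in that order. The count over all genes was the 784 of 14217 given above. Fat and muscle markers were dim in both groups, with list means of 3.54 to 3.87 in vehicle and 3.60 to 3.90 in treated livers, and 2 of 6 were higher (median −0.01), or 4 of 6 (0.05) without those arrays. Fewer cells of a type and less RNA per cell cannot be told apart in whole liver. The part of these cells in the differences of the members was not tested.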

How the data were processed

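Liver RNA of 8 rats, 4 given vehicle and 4 given the antiangiogenic treatment, was measured on 1 array each. The authors deposited log2 intensities computed with RMA in the affy package, per the submitters' processing notes, and the version is not given in the sources used here. These values were used as deposited, with 31042 probe sets after removal of 57 controls. Groups were compared with limma 3.58.1 in R 4.3.3 (lmFit, eBayes, all 8 arrays, no covariate) and Benjamini-Hochberg adjustment over all probe sets at 0.05. The code was tested on simulated data.

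The members and lists were chosen with earlier results of these data known. Named members are the 12 with the smallest p and a fixed set (Cpt1a, Cpt2, Slc25a20, Ppara, Acsl1, Fabp1, Pdk4, Bdh1). From the other pathway lists, fixed genes and the 3 at each end were named. Alternatives were quantile normalization, median centring, filters on dim probe sets, trended and robust eBayes, blocks for replicate number and hybridization group, averaging the probe sets of each gene, and leaving out arrays. The labels do not say that replicate numbers pair the samples, and the main comparison treated the samples as unpaired.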

Additional observations from a re-analysis of the deposited data

Results flagged for a closer look

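In 132 groups of 4 arrays, formed by the 66 named genes in vehicle and in treated livers, 5 values stood apart from the other 3 by Dixon's criterion, where chance gives about 1 in 20. Vehicle 3 held 3 of them. Echs1 measured 10.26 on vehicle 3, against 10.70 to 10.77 on the other vehicle arrays. Hsd17b10 measured 10.65 there, against 11.27 to 11.30. Acot1 measured 5.77 there, against 3.88 to 4.08. Retsat measured 11.70 on treated 1, against 11.13 to 11.21 on the other treated arrays. Acss1 measured 5.32 on treated 4, against 4.32 to 4.38.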

How the results depend on the processing

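Under 17 alternatives, 1084 of 1112 values of the 66 named genes kept their direction and their side of the threshold, and 28 changed sign. The blocks, the trended and robust eBayes and the filters on dim probe sets cannot change the difference of a gene. They can alter only its p or leave it out, so its direction was fixed in advance there. Of the 30 members, 24 never changed sign, and the smallest adjusted p of a member under any alternative was 0.496 (limma). The median member difference of 0.23 ranged from 0.18 to 0.29, and from 0.16 to 0.28 with 1 array left out. Members higher in treated livers numbered 27 to 29, and 25 to 28 with 1 array left out. Probe sets past the threshold numbered 0, but 3 without both near-identical arrays, and 0 to 11 with 1 array left out, the 11 being without vehicle 4. With the replicate number as a block, 0 probe sets passed. The median of 0.23 and the 28 higher members were unchanged by design, since each number holds 1 array of each group. The correlations of same-numbered deviations were −0.114, 0.041, −0.124 and −0.620, which cannot settle whether the numbers pair the samples.

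Quantile normalization gave Hadhb −0.0554 and Slc25a17 −0.0111. Centring gave Abcd2 0.0451 and shifted the median of all probe sets by 0.05. Leaving out both near-identical arrays gave Slc25a17 −0.0497, and averaging probe sets gave Pdk4 0.0096. With 1 array left out, the ranges were −0.083 to 0.22 for Cpt1a, −0.32 to 0.0465 for Crot, −0.12 to 0.13 for Hadhb, −0.10 to 0.45 for Crat and −0.0857 to 0.47 for Eci1. Outside the members they were −0.34 to 0.15 for Cpt1b, −0.96 to 0.0157 for Ppargc1a, −0.10 to 0.0737 for Abcd2, −0.0859 to 0.36 for Acacb, −0.57 to 0.0465 for Acot3, −0.0215 to 0.0332 for Slc25a17, −0.0241 to 0.61 for Acss2 and −0.34 to 1.30 for Acot1. The cause was not tested. The filter at a mean log2 value of 6 removed Ppara, and dim probe sets such as that of Ppara limit what can be read from them.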
